A study of Mus musculus with 7 samples.

Results

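The 10 enzymes described here make fatty acids from acetyl-CoA, lengthen them and introduce their first double bond. They are Acly, Acss2, Me1, Acaca, Fasn, Scd1, Scd2, Elovl5, Elovl6 and Elovl7. They were taken by gene symbol from the array annotation, which gave 10 of the 18193 genes measured and 30 of the 45037 probe sets of the array. A further probe set annotated to both Acss2 and Gssos2 was left out. Expression was measured with Affymetrix Mouse Genome 430 2.0 arrays in sorted luminal cells, the secretory epithelium of the prostate, on 4 T-ETV1 arrays (replicates A to D) and 3 wild-type arrays (WT, replicates A to C). In T-ETV1 mice the endogenous Tmprss2 promoter drives a human cDNA of ETV1, a transcription factor of the ETS family that gene fusions activate in part of human prostate cancers. WT mice lack it. Both groups were sorted as CD49f-positive and Sca1-negative cells after removal of cells with CD31, CD45 or Ter119, and the T-ETV1 cells also as GFP-positive, so genotype and the GFP gate cannot be told apart. The age and strain of the mice, and whether an array holds cells of 1 mouse or of a pool, are not stated in the labels. The series text speaks of biological replicates, and p-values measure the spread between these arrays.

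Fatty acid synthesis begins in the cytosol with acetyl-CoA, which Acly cuts from citrate and Acss2 makes from acetate. Acaca carboxylates it to malonyl-CoA, the committed step, and Fasn joins these units into palmitate with NADPH, part of which Me1 supplies by oxidising malate. Scd1 and Scd2 put a double bond into saturated fatty acids, and the Elovl elongases extend them in the endoplasmic reticulum, Elovl6 working on palmitate, Elovl5 on polyunsaturated fatty acids and Elovl7 on long saturated ones. Most of these genes are targets of the factor SREBP-1, and in human prostate cancer fatty acid synthesis is known to be raised and to respond to androgen.

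Array medians of intensity lay between 48.5 and 62.9 in T-ETV1 and between 51.8 and 73.7 in WT. The summed intensity of 8 measured luminal markers was 69950.2 to 77108 in T-ETV1 and 70039.6 to 73906 in WT. It includes genes near the array maxima of 13862 to 14597, such as Pbsn, at 11930 to 12433 in T-ETV1 and 12111 to 12447 in WT. Whether such a sum can show a difference in luminal cells was not tested. Markers of other cells were also present, in unequal amounts. The sum of 7 basal markers was 3515 to 19855 in T-ETV1 and 8479 to 21609 in WT, and all 7 had a lower mean in T-ETV1. All 7 endothelial markers, all 6 fibroblast markers and all 6 smooth muscle markers likewise had a lower mean in T-ETV1, with endothelial sums of 363 to 2238 in T-ETV1 and 1655 to 3650.47 in WT, fibroblast sums of 1782 to 8469 in T-ETV1 and 3764 to 20383 in WT, and smooth muscle sums of 113 to 802 in T-ETV1 and 544 to 5429 in WT. Of these basal, endothelial, fibroblast and smooth muscle markers 1, Cnn1, stayed under an intensity of 50 on every array. Of the macrophage markers 5 of 6 were lower, with sums of 97.98 to 7209.95 in T-ETV1 and 95.7 to 13276 in WT, and the leukocyte sums were 5811 to 9581 in T-ETV1 and 6907 to 11864 in WT (4 of 5 lower). The highest sum in each group was that of array C for the basal, endothelial, fibroblast, smooth muscle, leukocyte and macrophage lists. Adipocytes, another cell with abundant lipogenic enzymes, have the hormone Adipoq as a defining marker. Adipoq lay between 2.60 and 9.14 in T-ETV1 and between 5.57 and 10.1 in WT, and Cidec, Lep, Retn and Cidea also stayed under an intensity of 50 on every array. The sum of the 8 measured adipocyte markers was 1364 to 2107 in T-ETV1 and 1486 to 3049.63 in WT, with 5 of 8 lower. It was highest in WT C. Most of it came from the measured markers not named here, so the named ones do not show that adipocytes were absent. In such sorted bulk samples, fewer cells of a type and less RNA per cell cannot be told apart.

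The comparison asked whether the ETV1 allele goes with other levels of these enzymes. None of the 10 enzymes differed past the threshold. The test was limma over all genes on log2(intensity + 16), with 1 probe set per gene and a Benjamini-Hochberg adjusted p under 0.05, which 0 of 18193 genes (0%) passed. The adjusted p of the enzymes lay between 0.628 for Elovl7 and 0.985 for Acly. By the size of their difference, Me1 and Acaca stood at the higher end and Elovl6 and Elovl7 at the lower end. Of the 10 enzymes 7 had a higher mean in T-ETV1 and 3 a lower one, while 44.4% of all genes had a higher mean. The median log2 difference of the enzymes, T-ETV1 minus WT, was 0.13, beside -0.026 over all genes. After each array was centred on its median, 8 enzymes were higher and 2 lower, with a median of 0.27, beside 0.11 over all genes. The share of all genes that were higher after centring is not given here. At an unadjusted p under 0.05, 2 enzymes were higher (Fasn and Me1), beside 2.00% of all genes, and 1 was lower (Elovl7), beside 4.12%. The split of all genes at that level, 364 higher and 749 lower, became 703 higher and 492 lower after median centring. The enzymes at that level were then Fasn, Me1 and Acss2, all higher, and Elovl7 was at a difference of -0.37 ± 0.16 with an unadjusted p of 0.0539. In 1 enzyme, Fasn, every T-ETV1 array lay above every WT array, as in 2.42% of all genes, and in 1, Elovl7, every T-ETV1 array lay below, as in 3.90%. Confidence intervals given for single genes are at 95% and are not adjusted for the number of genes.

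**Figure D1:**
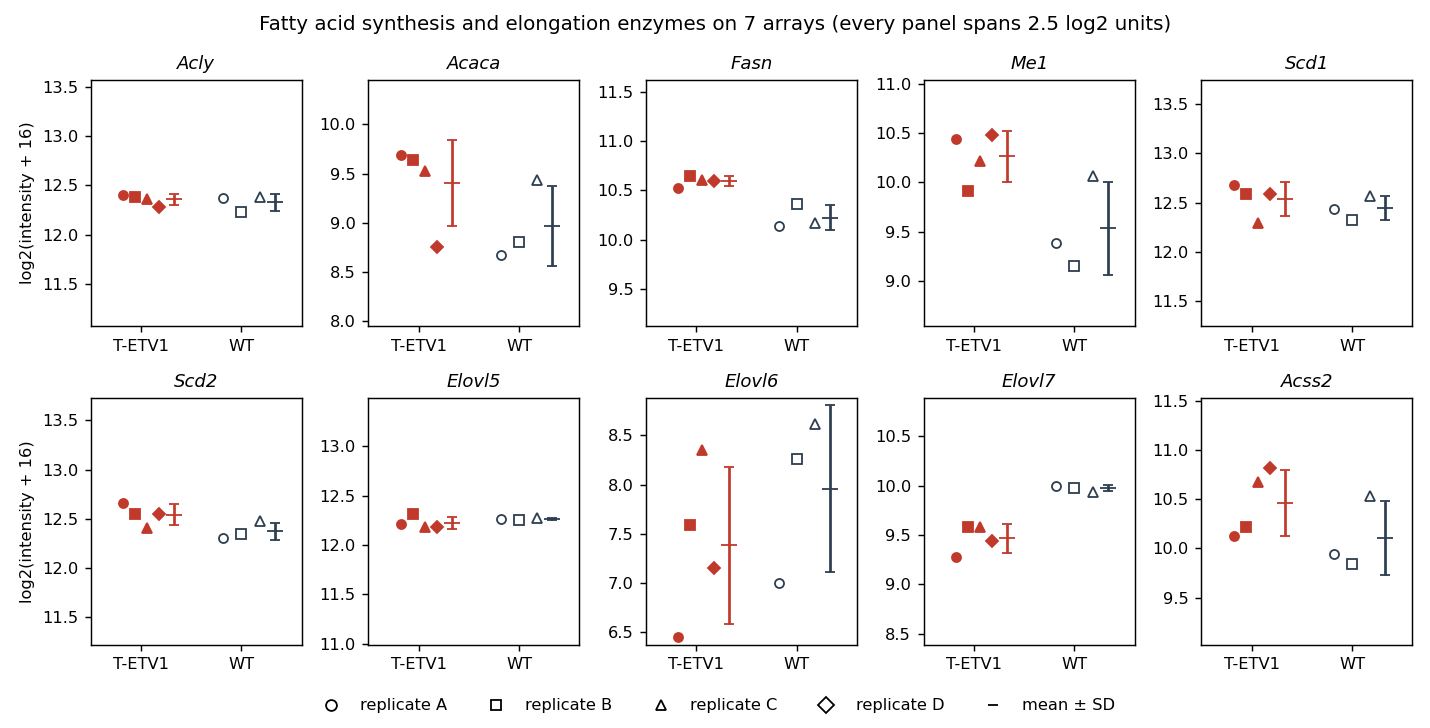
Log2(intensity + 16) of the probe set that stands for each of the 10 enzymes, T-ETV1 arrays (filled) left of WT arrays (open), with the marker shape giving the replicate letter and bars the mean ± SD (n = 4 and n = 3). Only in the panels of Fasn (T-ETV1 above) and Elovl7 (T-ETV1 below) do the groups not overlap, and no enzyme passed the threshold.

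Promoter sequences are shown for Fasn, Me1 and Elovl7, the 3 enzymes with an unadjusted p under 0.05, to set their differences beside the letters upstream of their start sites. The sequences are those of RefSeq on GRCm38.p6, 250 bases before the annotated start, read 5′ to 3′ on the gene's strand. They are chr11:120824548-120824797 (minus strand) for Fasn, chr9:86695915-86696164 (minus strand) for Me1 and chr13:108214154-108214403 (plus strand) for Elovl7. Capitals mark every match on either strand to the 6 motifs searched. Of these, only the CCAAT box and the GC box had matches in the sequences shown.
Fasn: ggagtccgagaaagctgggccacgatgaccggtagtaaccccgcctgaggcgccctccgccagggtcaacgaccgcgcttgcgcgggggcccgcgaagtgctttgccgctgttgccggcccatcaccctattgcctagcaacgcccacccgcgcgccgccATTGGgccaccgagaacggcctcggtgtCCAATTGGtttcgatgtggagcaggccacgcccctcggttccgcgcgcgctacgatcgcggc
Me1: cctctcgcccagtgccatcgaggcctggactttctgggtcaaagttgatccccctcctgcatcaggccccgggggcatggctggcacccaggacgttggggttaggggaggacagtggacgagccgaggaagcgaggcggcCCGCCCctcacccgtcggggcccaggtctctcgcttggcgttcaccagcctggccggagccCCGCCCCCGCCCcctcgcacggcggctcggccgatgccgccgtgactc
Elovl7: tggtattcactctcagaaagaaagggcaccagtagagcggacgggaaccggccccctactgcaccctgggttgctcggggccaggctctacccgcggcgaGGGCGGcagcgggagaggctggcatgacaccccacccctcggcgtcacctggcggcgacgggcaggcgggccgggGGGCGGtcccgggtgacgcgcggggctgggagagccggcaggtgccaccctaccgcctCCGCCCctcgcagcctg

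The Fasn sequence holds CCAAT, the box bound by NF-Y, 3 times on either strand, at 90, 62 and 59 bases upstream of the start, the matches at 62 and 59 bases overlapping. The Fasn window lies inside the span of the gene's longest annotated form, and the end of the Elovl7 window reaches into that of Elovl7. The GC box GGGCGG, bound by Sp1, occurs 3 times in the Me1 sequence and 3 times in that of Elovl7. Of the 10 enzymes 8 had a promoter window, Scd1 and Scd2 being the others, and Me1 had 2 windows, so 9 windows were searched on both strands. CCAAT was found in 4 of the 9 (Acss2, Elovl5, Fasn and the second window of Me1), against 33.8% of all 32851 windows, and GGGCGG in 4 of the 9 (Acly, Acss2, Elovl7 and Me1), against 32.7%. The ETS motif CCGGAAG was in 1 of the 9, that of Acss2, against 6.91% of all windows. The E-box CACGTG was in 1, that of Elovl5, against 6.02%. The sterol regulatory element TCACNCCAC was in 0 of the 9 and in 1.05% of all windows. The antioxidant response core TGACTCAGC was likewise in 0 of the 9, against 0.39% of all windows. Each motif was searched only as the letters given here, so looser forms of these sites were not counted. These are matches of letters in short windows, and binding was not measured.

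Fasn, the fatty acid synthase itself, was higher on every T-ETV1 array than on any WT array. Its intensity was 1457, 1584, 1544 and 1531 on T-ETV1 arrays A to D, against 1111, 1302 and 1135 on WT arrays A to C. The highest WT array was WT B, which lay below T-ETV1 A, the lowest of its group. The log2 difference was 0.37 ± 0.10 (SE; interval 0.13 to 0.61), a 1.29-fold higher mean in T-ETV1, with an unadjusted p of 0.00893 and a limma adjusted p of 0.700. Within the replicate letters the difference was 0.39 for A, 0.28 for B and 0.44 for C. The array carries 1 probe set for Fasn, so no second measurement of this gene was at hand.

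Acaca, which makes the malonyl-CoA that Fasn uses, had intensities of 811, 781, 724 and 417 in T-ETV1 and of 391, 433 and 676 in WT. The T-ETV1 arrays A to C lay above all WT arrays, while T-ETV1 D lay below WT B and WT C. The log2 difference was 0.43 ± 0.29 (interval -0.27 to 1.13; limma adjusted p = 0.881). It was 0.28 without WT A, 0.67 without WT C and 0.65 without T-ETV1 D. The SD within each group, 0.44 in T-ETV1 (n = 4) and 0.41 in WT (n = 3), was about as large as the difference. A second Acaca probe set had intensities of 7.31 to 16.1 in T-ETV1 and 3.84 to 13.4 in WT and adds little.

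Me1, the cytosolic malic enzyme and a source of NADPH, had the largest difference of the 10. Its intensity was 1374, 947, 1175 and 1417 in T-ETV1, against 654, 551 and 1053 in WT. WT C lay above T-ETV1 B, so the groups overlapped. The log2 difference was 0.73 ± 0.25 (interval 0.13 to 1.34), or 1.66-fold, with an unadjusted p of 0.0248 and a limma adjusted p of 0.772. A second probe set of Me1 gave 649, 1024, 847 and 673 in T-ETV1, against 446, 600 and 433 in WT, where the groups did not overlap. Its log2 difference was 0.67 ± 0.21, close to that of the first, though the arrays took another order: T-ETV1 B was lowest of its group in the first and highest in the second, and WT C highest in the first and lowest in the second. The difference in Me1 was 0.54 without WT B and 0.996 without WT C. Within the letters it was 1.05 for A, 0.76 for B and 0.16 for C.

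Both enzymes that make acetyl-CoA had a higher mean in T-ETV1, while some of their probe sets had a lower one. Acly, the ATP citrate lyase, had 5403, 5323, 5265 and 4945 in T-ETV1 and 5284, 4794 and 5318 in WT. The groups overlapped, with a log2 difference of 0.029 ± 0.095 (interval -0.20 to 0.26; limma adjusted p = 0.985), whose sign turned without WT B (-0.019) and with the mean of the 6 Acly probe sets (-0.016). Of those 6, 1 (1451666_at) lay higher on every T-ETV1 array than on any WT array, at 3619 to 3871 in T-ETV1 against 3279 to 3614 in WT, and 1 (1425326_at) lower, at 309 to 428 in T-ETV1 against 458 to 514 in WT. Both were designed on the same sequence record, and their log2 differences were 0.098 ± 0.10 and -0.36 ± 0.15. Acss2, which activates acetate, had 1105, 1174, 1614 and 1790.2 in T-ETV1, against 967, 901 and 1464 in WT. T-ETV1 A and B lay between WT A and WT C. The log2 difference was 0.35 ± 0.25 (interval -0.24 to 0.94; limma adjusted p = 0.881), 0.57 without WT C and 0.22 at the lowest when another array was left out. A second Acss2 probe set had a difference of 0.42 ± 0.27 and the remaining one of -0.31 ± 0.24, so the probe sets of this gene disagreed in sign.

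The probe sets that stand for the desaturases were bright on every array and differed little, while a dimmer one of Scd2 differed more. Scd1 had 6547, 6152, 4991 and 6128 in T-ETV1, against 5516, 5109.82 and 6057 in WT. T-ETV1 C was the lowest array of all, and the other T-ETV1 arrays were the 3 highest. The log2 difference was 0.095 ± 0.13 (interval -0.22 to 0.41), 0.035 without WT B, 0.047 without T-ETV1 A, 0.16 without WT C and 0.18 without T-ETV1 C. Scd2 had 6463, 5969, 5407 and 5990.41 in T-ETV1, against 5060.47, 5178 and 5673 in WT. T-ETV1 C lay below WT C, and the others above all WT arrays. The difference was 0.17 ± 0.11 (interval -0.086 to 0.42). The limma adjusted p was 0.947 for Scd1 and 0.876 for Scd2. A dimmer probe set of Scd1 had a log2 difference of 0.22 ± 0.29. Scd2 also had a dimmer probe set (1415824_at) with 2559, 1959.62, 1777 and 2232 in T-ETV1, against 1204, 1396 and 1623 in WT. Its groups did not overlap, and its log2 difference of 0.59 ± 0.17 was larger than those of the other Scd2 probe sets, 0.17 ± 0.12 and 0.15 ± 0.16. The letter pairs of Scd1 gave 0.25 for A, 0.27 for B and -0.28 for C, and those of Scd2 gave 0.35, 0.20 and -0.069. Scd1 and Scd2 are close relatives, and whether a probe set for one also binds the other's transcript was not tested.

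The elongases had a lower mean in T-ETV1, though the difference of Elovl5 was near 0 and its sign turned with median centring. Elovl7 had the smallest p of the 10 enzymes, place 91 among the 18193 genes. Its intensity was 602, 748, 751 and 680 in T-ETV1, against 1009, 994 and 966 in WT. The WT arrays lay close together and every T-ETV1 array lay below them. The log2 difference was -0.51 ± 0.11 (SE; interval -0.77 to -0.24), a 1.42-fold lower mean in T-ETV1, with an unadjusted p of 0.00325 and a limma adjusted p of 0.628. Within the letters it was -0.73 for A, -0.40 for B and -0.36 for C. ELOVL7 has been studied in human prostate cancer cells, where it is known to respond to androgen.

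All 6 probe sets of Elovl7 had a lower mean in T-ETV1, with log2 differences between -0.51 and -0.20. The groups of the other 5 overlapped. In 5 of the 6, T-ETV1 C was the highest of the T-ETV1 arrays, though in the probe set that stands for the gene it was nearly level with T-ETV1 B (751 and 748). The probe set 1424098_at had 378, 364, 603 and 350.39 in T-ETV1, against 481, 417 and 546 in WT, and 1440312_at had 344, 321, 643 and 343 in T-ETV1, against 487, 403 and 505 in WT. In both, T-ETV1 C lay above every WT array and the other T-ETV1 arrays lay below every one. Without T-ETV1 C, a choice made after the values were seen, the differences of these 2 were -0.38 ± 0.14 and -0.44 ± 0.14 (limma adjusted p = 0.541 and 0.453), in place of -0.20 ± 0.22 and -0.22 ± 0.26 with all arrays. T-ETV1 C was also the T-ETV1 array with the highest basal, endothelial and macrophage sums, and the part of those cells in this value was not tested.

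Elovl6, which lengthens palmitate, was dim and varied most among arrays. The probe set with the higher mean had 71.4, 176, 311 and 127 in T-ETV1, against 112, 290.32 and 376 in WT. Array C was the highest of each group and array A the lowest. The log2 difference was -0.57 ± 0.55 (interval -1.88 to 0.73; limma adjusted p = 0.917), and it was -1.05 without WT A and -0.25 without WT C. With the replicate letters as a block on arrays A to C it was -0.50 ± 0.15, with an unadjusted p of 0.0309 and a limma adjusted p of 0.647. The SD was 0.80 in T-ETV1 (n = 4) and 0.85 in WT (n = 3). A second probe set, 1417403_at, had 36.1, 40.2, 72.3 and 55.1 in T-ETV1, against 144, 121 and 115 in WT. Here every T-ETV1 array lay below every WT array, and the log2 difference was -1.12 ± 0.21, with an unadjusted p of 0.00106 and a limma adjusted p over all probe sets of 0.594. It was the largest difference among the 30 probe sets. The remaining one was at 4.48 to 6.99 in T-ETV1 and 4.39 to 12.7 in WT, near the bottom of the scale.

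Elovl5, the elongase of polyunsaturated fatty acids, was bright and even. It had 4739, 5092, 4641 and 4631 in T-ETV1, against 4903, 4879.73 and 4935 in WT. The 3 WT values lay within the range of the T-ETV1 values. The log2 difference was -0.040 ± 0.090 (interval -0.25 to 0.17; limma adjusted p = 0.975), between -0.071 and -0.025 with 1 array left out, and its sign turned with median centring (0.097, beside a median of 0.11 over all genes).

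Over all 30 probe sets, 16 had a higher and 14 a lower mean in T-ETV1. The groups did not overlap in 4 that were higher (of Acly, Fasn, Me1 and Scd2), beside 2.56% of all probe sets, and in 3 that were lower (of Acly, Elovl6 and Elovl7), beside 3.71%. None passed when every probe set was tested on its own (smallest limma adjusted p = 0.594), while at an unadjusted p under 0.05 there were 4 higher, beside 2.10% of all probe sets, and 3 lower, beside 3.78%. All probe sets of a gene had the same sign in Acaca, Me1, Scd1, Scd2, Elovl5, Elovl6 and Elovl7, and both signs occurred in Acly and Acss2.

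**Figure D2:**
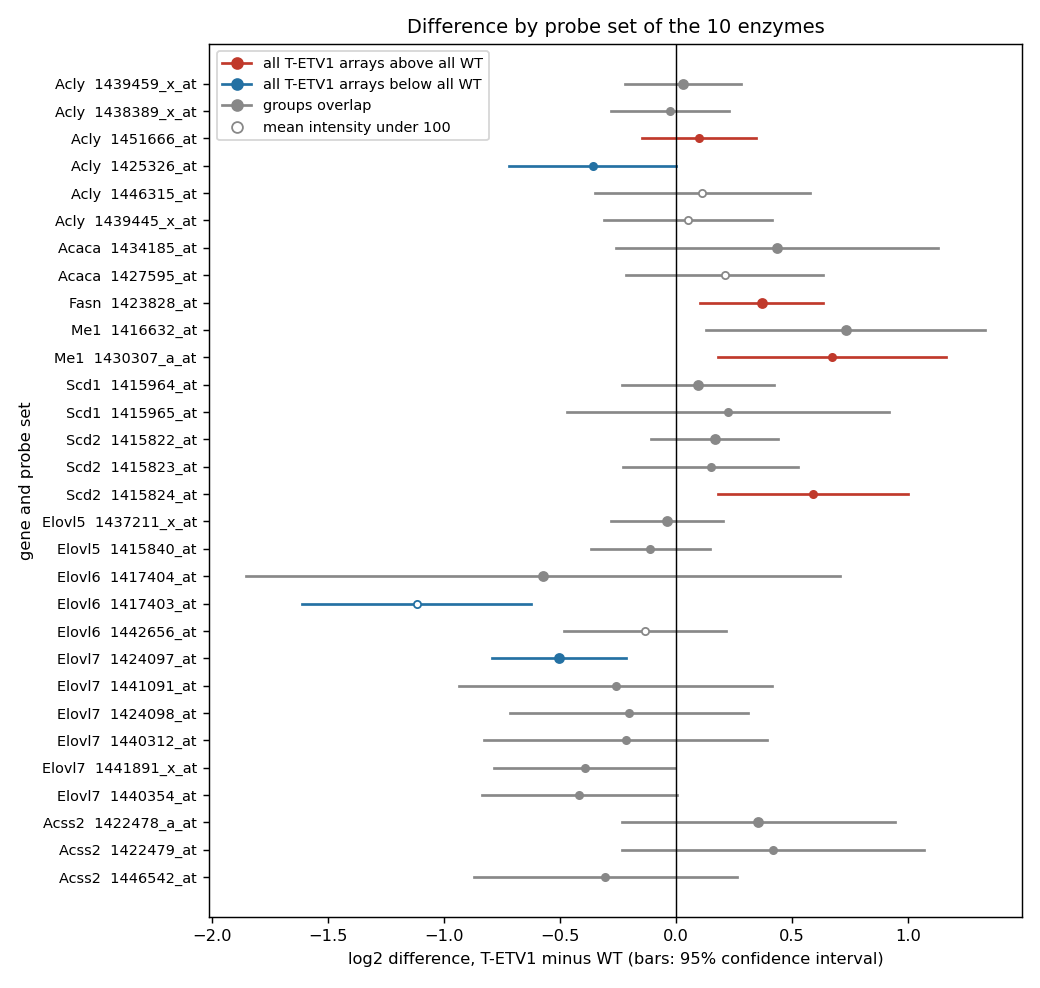
Log2 difference, T-ETV1 minus WT, of each of the 30 probe sets (points) with its 95% confidence interval (bars), in red where all T-ETV1 arrays lay above all WT arrays, in blue where all lay below, and in grey where they overlapped. Open points have a mean intensity under 100. The probe sets of Fasn and Me1 lie to the right of 0, those of Elovl6 and Elovl7 to the left, and those of Acly and Acss2 on both sides.

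On the deposited scaling, the replicate letters showed the enzymes in 3 classes. Acaca, Fasn, Me1 and Acss2 were higher in T-ETV1 within each of the letters A, B and C, which makes 4 of the 10, and Elovl6 and Elovl7 were lower within each. The other 4, Acly, Scd1, Scd2 and Elovl5, had both signs. How many of all genes kept the same sign in the 3 letters was not counted. Within each letter the T-ETV1 array had the lower median, so median centring raised every difference. Acly, Scd2 and Elovl5 were then higher within each letter, and only Scd1 had both signs. On the deposited scaling, the C pair gave the lowest difference of the 3 in 7 of the 10, all but Fasn, Elovl6 and Elovl7, beside 38.8% of all genes. After median centring this held for 4 of the 10, beside 32.3% of all genes. T-ETV1 A was the highest of the 7 arrays in 4 enzymes (Acly, Acaca, Scd1 and Scd2) and the lowest in 2 (Elovl6 and Elovl7).

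Other enzymes of fatty acid metabolism were measured on the same arrays. Their counts by direction on the deposited scaling, here and in the lists below, stand beside 44.4% of all genes with a higher mean. Of 29 further genes of fatty acid synthesis, elongation and desaturation 27 were measured, of which 14 were higher and 13 lower, with a median of 0.0046 (19, 8 and 0.14 after median centring), and none passed. At an unadjusted p under 0.05 there was 1, Scd3, a further desaturase. It had 221, 99.1, 169 and 95.5 in T-ETV1, against 30.9, 55.8 and 76.7 in WT, with no overlap and a difference of 1.18 ± 0.35 (limma adjusted p = 0.737). Scd3 is a close relative of Scd1 and Scd2. Fads1, the delta-5 desaturase of polyunsaturated fatty acids, had 12.7, 12.8, 572 and 138 in T-ETV1, against 134, 462 and 1185 in WT. Fads2, the delta-6 desaturase, had 172, 298, 935 and 554 in T-ETV1, against 201, 658 and 1349 in WT. In both genes array C was the highest of its group, and array A the lowest. Their differences were -2.25 ± 1.25 and -0.47 ± 0.77 (limma adjusted p = 0.865 and 0.956), and another probe set of Fads2 had the opposite sign. Acacb, the acetyl-CoA carboxylase of the mitochondrial surface, had 98.3, 14.6, 297 and 65.5 in T-ETV1, against 146, 110.29 and 257 in WT (-0.87 ± 0.75; adjusted p = 0.910). Oxsm, the ketoacyl synthase of mitochondrial fatty acid synthesis, had 254, 364, 333 and 227 in T-ETV1, against 97.6, 242 and 229 in WT. WT A was the lowest of all arrays, and T-ETV1 D lay below WT B and WT C (0.66 ± 0.33; limma adjusted p = 0.838), and another probe set had the opposite sign. Elovl2, a further elongase of polyunsaturated fatty acids, was dim, at 3.11 to 20.9 in T-ETV1 and 5.15 to 40.7 in WT (-0.70 ± 0.40; limma adjusted p = 0.865).

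The basal keratin Krt5 was likewise highest in array C of each group, with 24.7, 16.4, 1753 and 205 in T-ETV1, against 349, 1578 and 2364 in WT. Krt14 had 35.2, 19.9, 1191 and 23.6 in T-ETV1, against 219, 866 and 3034 in WT. Of the 10 enzymes 1, Elovl6, was highest in array C of both groups, and of the 27 further genes 6 were (Acacb, Mid1ip1, Fads1, Fads2, Hacd1 and Hacd3), beside 19.7% of all genes. The first count is under that share and the second near it. In the second Elovl6 probe set, 1417403_at, WT C was the lowest WT array, at 115 beside 144 in WT A and 121 in WT B. Mid1ip1, Hacd1 and Hacd3 are named here after their values were seen. The part of basal cells in the values of these genes was not tested. Krt8, a luminal keratin, had 5505 to 8523 in T-ETV1 and 5612 to 7234 in WT.

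**Figure D3:**
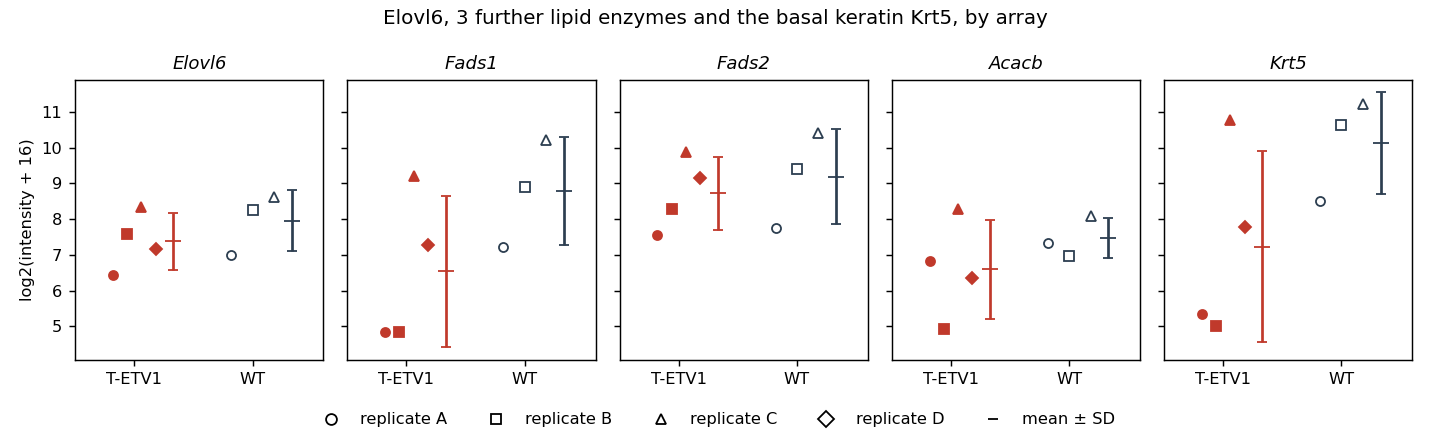
Log2(intensity + 16) of Elovl6, Fads1, Fads2, Acacb and the basal keratin Krt5 on a shared axis, T-ETV1 arrays (filled) left of WT arrays (open), with marker shapes for the replicate letters and bars for the mean ± SD (n = 4 and n = 3). Array C (triangles) is the highest of its group in all 5 panels, at 1753 in T-ETV1 and 2364 in WT for Krt5. Array C was highest in both groups in 19.7% of all genes. In the second Elovl6 probe set, not shown here, WT C was the lowest WT array.

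Genes listed under NADPH supply had 8 of 11 measured genes higher and a median of 0.064 (0.20 with 11 of 11 higher after median centring, where the median over all genes was 0.11). Pgd, of the pentose phosphate pathway, had 2766, 3119, 2833 and 2819 in T-ETV1, against 2205, 2454 and 2421 in WT. Its groups did not overlap, and its difference was 0.29 ± 0.099 (unadjusted p = 0.0237, limma adjusted p = 0.768). The others with the smallest p were Aldh1l1, a folate enzyme that yields NADPH (0.73 ± 0.41), the transketolase Tkt (0.18 ± 0.12, with another probe set of opposite sign) and Idh2, the mitochondrial NADP-dependent isocitrate dehydrogenase (-0.12 ± 0.10). Tkt, of the same pathway as Pgd, makes no NADPH itself. Slc25a1, the carrier that exports the citrate Acly uses, had -0.12 ± 0.12. G6pdx was not analysed here.

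Among 24 measured regulators of lipogenesis 15 were higher and 9 lower, with a median of 0.042 (18, 6 and 0.18 after median centring), and none passed. Srebf1, which encodes SREBP-1, had 1717, 1634, 1183 and 1927 in T-ETV1, against 1403, 1030.02 and 1375 in WT. T-ETV1 C lay between WT B and WT C and the other T-ETV1 arrays above all WT arrays, and the log2 difference was 0.34 ± 0.20 (limma adjusted p = 0.876). Its escort Scap had 0.27 ± 0.19, the retention factor Insig1 0.15 ± 0.21, and Srebf2, the relative that acts mainly on sterol genes, 0.23 ± 0.10 with groups that did not overlap. Mbtps2, the site-2 protease that releases the SREBP factors from the membrane, had -0.27 ± 0.14, and the transcription factor Sp1 -0.24 ± 0.13 (limma adjusted p = 0.846 and 0.851). Nr1h3, the LXR-alpha receptor and an activator of Srebf1, had 40.4, 43.8, 20.1 and 39.6 in T-ETV1, against 55.2, 62.95 and 78.3 in WT. It was dim, and lower on every T-ETV1 array than on any WT array (-0.67 ± 0.21, unadjusted p = 0.0165, limma adjusted p = 0.751). Mlxipl, the carbohydrate-responsive factor ChREBP, was also dim, at 5.63 to 33.6 in T-ETV1 and 1 to 43.8 in WT.

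On the deposited scaling, enzymes that use the fatty acids lay near the median of all genes. Of 10 acyl-CoA synthetases and transporters 5 were higher and 5 lower (median 0.0097), and of 22 genes of glycerolipid synthesis and storage 14 were higher and 8 lower (median 0.034; 20, 2 and 0.17 after median centring). With quantile normalization 18 of the glycerolipid genes were higher and 4 lower, with a median of 0.11 beside 0.019 over all genes. On the deposited scaling, none of either list had an unadjusted p under 0.05. Acsm3, a medium-chain acyl-CoA synthetase, had -0.53 ± 0.23, and Slc27a2, a very long chain acyl-CoA synthetase, 1.01 ± 0.61. Acsbg1, an acyl-CoA synthetase, was dim and lower on every T-ETV1 array, at 3.77 to 19.2 in T-ETV1 and 19.6 to 52.9 in WT (-0.76 ± 0.34). Slc27a1, a fatty acid transport protein, had -0.31 ± 0.16, with another probe set of opposite sign. Cept1, the choline and ethanolamine phosphotransferase, had -0.29 ± 0.14, and Lpin1, a phosphatidate phosphatase, 0.18 ± 0.11. The acyltransferases Mogat1 and Dgat1, which make diacylglycerol and triacylglycerol, had 0.60 ± 0.35 and -0.24 ± 0.16. The limma adjusted p of these 8 genes lay between 0.822 for Acsm3 and Acsbg1 and 0.876 for Slc27a2, Lpin1 and Dgat1.

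**Figure D4:**
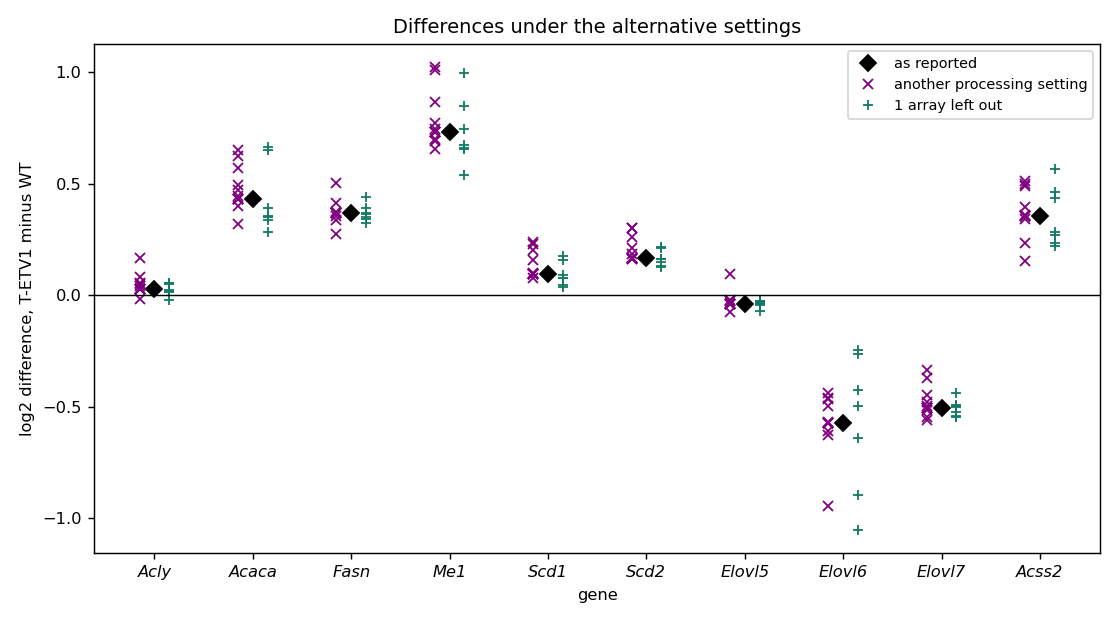
Log2 difference, T-ETV1 minus WT, of each enzyme as reported (diamonds), under other processing settings (crosses, left) and with 1 array left out (plus signs, right). Fasn, Me1 and Elovl7 keep their side of 0 throughout, Elovl6 ranges from -1.05 to -0.25, and Acly and Elovl5, near 0, are the enzymes whose sign turns under some settings.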

How the data were processed

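Total RNA of sorted cells was amplified (NuGEN V2) and hybridised to the arrays, per the labels' protocols. The deposited table gives linear intensities, 1 for each of 45037 probe sets on each of 7 arrays; how the authors summarised probes and scaled the arrays is not given in the sources used here. Values were taken as log2(intensity + 16), so differences of dim genes are understated. The highest intensity of an array was 13862 to 14597. Whether differences of bright genes are understated as well was not tested. The array medians differed by at most 0.476 on that scale and the deposited scaling was kept. Of the probe sets 34945 had 1 gene symbol in the platform annotation, 932 several and 9160 none; 34741 symbols were updated by Entrez ID with a GRCm38.p6 gene table, used for names only. The probe set with the highest mean stood for a gene.

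T-ETV1 was compared with WT with limma 3.58.1 in R 4.3.3 (lmFit, eBayes, two-sided, Benjamini-Hochberg over all genes), after a test on simulated data. Deviations from group means correlated at 0.281, 0.217 and 0.356 between arrays of the same letter (A, B, C), all over 0.1, so the letters were taken as pairs; WT A and T-ETV1 D reached 0.187. The fit without the block was kept as the main one. The enzymes and gene lists were chosen with earlier results of these data known. The 10 enzymes are named with every probe set summarised, and of each list up to 4 genes with the smallest p and fixed enzymes, regulators and markers. The number of arrays limits the precision.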

Additional observations from a re-analysis of the deposited data

Results flagged for a closer look

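Among the 30 probe sets, the 4 T-ETV1 arrays were searched for an array far from the others, by the gap to its neighbour as a share of the group's range (Dixon's 95% critical value; 3 WT arrays are too few). The value was exceeded in 2 probe sets of Elovl7, both through T-ETV1 C lying high: 1424098_at, with a share of 0.860, and 1440312_at, with 0.902. Chance alone exceeds that value in about 1 of 20 groups, so 2 of 30 is near what chance gives, and probe sets of 1 gene on the same arrays are not separate observations.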

How the results depend on the processing

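No enzyme passed the threshold under any of the 20 alternatives, and the lowest adjusted p, 0.175 for Elovl7, came with array weights. Of the 10 enzymes, 8 kept their sign under every alternative that gave a value. The exceptions were Elovl5, at 0.097 after median centring, and Acly, at -0.016 when its probe sets were averaged and at -0.019 to 0.056 with 1 array left out. Median centring moved the median of all genes from -0.026 to 0.11, and quantile normalization moved it to 0.019. The median of the enzymes was 0.086 to 0.19 with 1 array left out and 0.25 without both arrays C. With the replicate block on arrays A to C it was 0.12, and no call at the adjusted threshold changed with the block. At an unadjusted p under 0.05, Elovl6 joined Elovl7 as lower with the block, and Fasn and Me1 were higher as without it, beside 931 lower and 383 higher of all genes. Elovl6 fell under the filter that left out the lowest 50% of genes and has no value there. Over all genes, the number past the threshold ranged from 0 to 27 with 1 array left out: 7 without WT C and 27 without T-ETV1 C. It was 68 without both arrays C. Each of these fits has fewer arrays, and the cause was not tested. At low intensity small differences could not be measured. For the probe set that stands for Elovl6, the SD between arrays was also wide, at 0.80 in T-ETV1 and 0.85 in WT.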
